A study of Homo sapiens with 15 samples.

Results

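The libraries titled trex4039 and trex5008 were compared with each other directly, without the control libraries. They are 6 of 15 RNA sequencing libraries made from HEK293FT cells, a fast-growing line derived from human embryonic kidney. In both groups, per the labels' protocols, cells carried dCas9-VP64 and an MS2-p65-HSF1 activator together with a pool of 5 guide RNAs placed 50 to 450 bp ahead of the start of a long non-coding RNA (lncRNA). All 5 groups, the non-targeting control included, received the same activators, were selected with 2 ug/mL puromycin from 24 hours on and were harvested 48 hours after transfection. Each group has 3 libraries, described as biological triplicates. The libraries titled trex4039 are labelled as targeting TrEx4039. Those titled trex5008 are labelled as targeting TrEx8168, and those titled trex8168 as targeting TrEx5008. Title and label therefore disagree for the trex5008 group, which is called here by its title, and which lncRNA its guides were placed at was not settled. Of the 11230 rows (transcribed loci) of the deposited table, 9795 had a mean normalised count of at least 50 over the 15 libraries and were compared. They include 6972 rows annotated as protein-coding.

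The table gives 1 mean normalised count per group and no values per library, so the group means below carry no SD and depth is unknown. Differences are written as log2 of (trex4039 mean + 1) over (trex5008 mean + 1), with positive values where trex4039 was higher. Each listed row was under an adjusted p of 0.1 in 1 or more of the 4 comparisons with control, so shares of rows below are shares of that list and not of all genes. The 5 groups were scaled alike: the sum of the listed group means was between 31568416 and 34007069, with 32387766 in trex4039 and 32792597 in trex5008. Of the marker genes of the line, 5 of 9 were listed, with a summed mean of 14603 in trex4039 and 15925 in trex5008. Among them NEFM stood at 3590 in trex4039 and 4863 in trex5008. CDH2 went the other way, with deposited log2 fold changes against control of 0.31 in trex4039 and 0.18 in trex5008. The fibroblast markers had 3 of 6 listed (513 and 471), neurons 1 of 4 (SYP, 1150 and 1308), and blood cells 0 of 4. A marker that is not listed may still be expressed, since listing required a difference from control. In these bulk libraries fewer cells of a kind and less RNA per cell cannot be told apart.

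In CRISPR activation a catalytically dead Cas9 is led by guide RNAs to the front of a gene, where its attached activation domains recruit the transcription machinery. The TrEx lncRNAs are expressed transiently while pluripotent cells become cortical neurons. A lncRNA can act near its own gene, on neighbouring genes, or at a distance. Both groups carried the same activators and selection, so the direct comparison sets 1 guide pool against another, where each comparison with control sets a guide pool against non-targeting guides.

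The groups lay close together. The median size of the log2 difference over the 9795 rows was 0.11, the third smallest of the 10 pairs of groups, and the median signed difference was 0.01. In all 109 rows (1.11%) lay at least 1.5-fold apart and 11 (0.112%) at least 2-fold apart, the lowest counts of the 10 pairs. By comparison 700 rows lay at least 1.5-fold apart between control and trex4039, 204 between control and trex5008, 330 between trex4039 and trex8168, and 113 between trex5008 and trex8168. The interquartile range of the differences was -0.10 to 0.11.

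**Figure D1:**
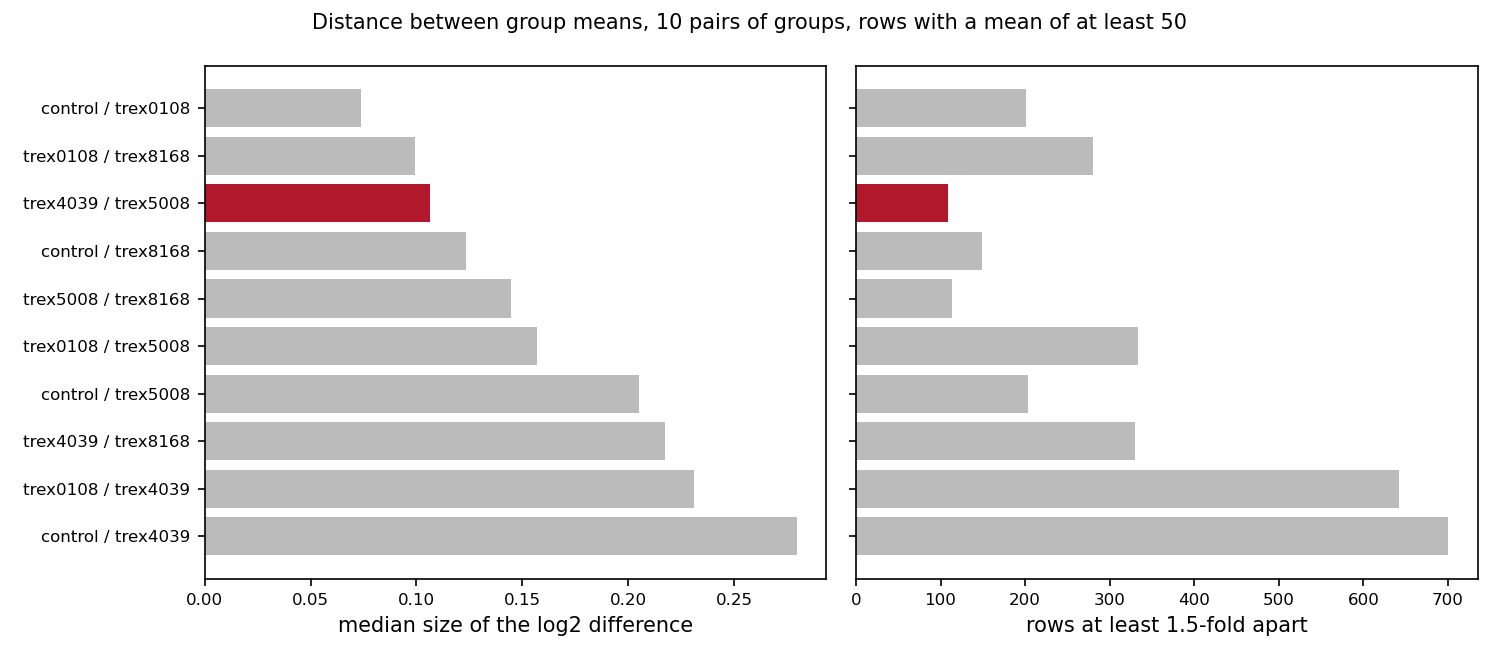
Distance between group means for the 10 pairs of groups, as the median size of the log2 difference (left) and the number of rows at least 1.5-fold apart (right), with the trex4039 and trex5008 pair in red. That pair has a median size of 0.11 and 109 rows, against 0.28 and 700 for control and trex4039.

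Among the compared rows, 30 were at least 1.5-fold higher in trex4039 (0.306%) and 79 at least 1.5-fold lower (0.807%), while 3 (0.0306%) and 8 (0.0817%) passed 2-fold. The balance depends on the measure: by the difference of the authors' deposited log2 fold changes, which are shrunken, 8 rows passed 1.5-fold higher and 9 lower. Most of the lower rows were weakly expressed or unannotated. A mean under 100 was found for 43 of the 79 lower rows and 10 of the 30 higher rows, and 38 of the 79 carried no gene symbol, against 7 of the 30. Of all 9795 compared rows, 564 had a mean under 100 and 3163 carried no gene symbol. In rows with a mean from 50 to 100, 9.40% passed 1.5-fold either way. In rows with a mean of at least 1000, 1 of 6141 was higher and 5 were lower. Depth per library is unknown, so the larger share among weak rows was not weighed against counting error.

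Because no library values were at hand, the difference was tested only approximately. The authors' deposited log2 fold changes against control were subtracted from each other, their standard errors were recovered from the adjusted p-values, and the difference was put to a z test with Benjamini-Hochberg adjustment. Both fold changes use the same control libraries, so their errors share a covariance whose size is unknown. With the covariance at 0, 19 of 5536 rows called against control in both groups were higher in trex4039 (0.343%) and 51 lower (0.921%) at an adjusted p under 0.05 (1.26% either way), with 675 rows at an unadjusted p under 0.05. With a covariance of 0.5 of the product of both errors, 374 were higher (6.76%) and 340 lower (6.14%), or 12.9% either way. Over the 8951 rows called against control in at least 1 group, a wider set chosen after the values were seen, 38 were higher (0.425%) and 62 lower (0.693%) with the covariance at 0 (1.12% either way), and 769 higher (8.59%) and 669 lower (7.47%) with it at 0.5 (16.1% either way). The count of differing rows thus depends on a quantity that the table does not hold, and the counts at 0 are the low ones. Most called rows had the same sign against control in both groups and the larger size in trex4039. This held for 61 of the 70 rows called at 0 in the first set and 77 of the 100 in the wider set. In 0 rows of either was a same-sign change larger in trex5008, and 9 and 23 rows had opposite signs. The share of all tested rows with that order was not counted. A row not called at 0 is not thereby shown to be alike in the groups. Error recovery assumed 11195 tests for trex4039 and 10589 for trex5008, which leaves out loci absent from the deposited table. With 69629 tests assumed, 68 of the 5536 rows were higher and 103 lower at a covariance of 0. Adjusted p-values below are from the z test over the wider set, given for a covariance of 0 and then of 0.5. Of the rows past 1.5-fold, 29 of 30 higher and 78 of 79 lower rows could be tested. Among them 11 higher and 10 lower rows were called at 0, and 29 and 51 at 0.5. These rows were chosen for the size of the difference between the same groups, so a raised share of calls follows from the choice.

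**Figure D2:**
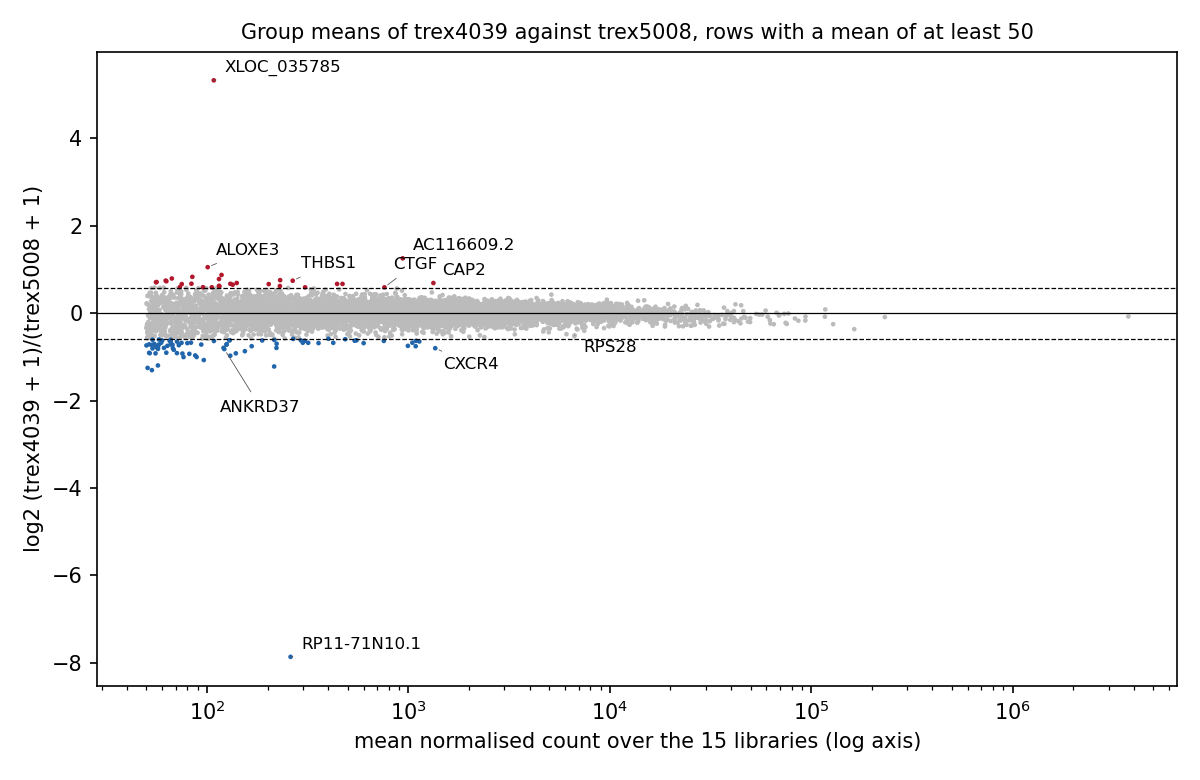
Log2 difference of the group means (vertical axis) against the mean normalised count over the 15 libraries (horizontal log axis) for 9795 rows, with dashed lines at 1.5-fold, and red and blue points for the 30 higher and 79 lower rows. Apart from XLOC_035785 at 5.33 and RP11-71N10.1 at -7.87, the rows lie between -1.30 and 1.26.

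The widest gaps were at a lincRNA and an unannotated locus, each of which was high in 1 of the compared groups and low elsewhere. RP11-71N10.1, a lincRNA on chromosome 3 (147657714 to 147724914, hg19), had a mean of 1285 in trex5008 and 4.51 in trex4039, with 4.51 in control, 5.37 in trex0108 and 2.32 in trex8168. The difference was -7.87, or 233-fold on the scale with 1 added. Its adjusted p is listed as 0 in the authors' deposited table, so no error could be recovered. The unannotated locus XLOC_035785 on chromosome 2 (56180865 to 56276825) had a mean of 492 in trex4039 and 11.3 in trex5008. It stood at 12.2 in control, 14.4 in trex0108 and 11.2 in trex8168, and the difference was 5.33 (adjusted p of the z test 1.45e-84 and 4.16e-171). Both rows reached the minimum mean for comparison only through the group in which they were high. XLOC_035785 was also chosen for its rise in trex4039, so its small z test values follow from that choice and lend no separate support. No column links a TrEx number to a locus, so these rows are the strongest risen row not annotated as protein-coding in each group and not identified targets.

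No listed neighbour of these loci passed the test between the groups. Within 500 kb of XLOC_035785 there were 4 listed rows. PNPT1, a mitochondrial RNA-processing nuclease, had means of 3226 in trex4039 and 3185 in trex5008, a difference of 0.02. CCDC104 stood at 2066 and 2010 (0.04) and the unannotated XLOC_035780 at 3494 and 3358 (0.06). RP11-554J4.1, an antisense locus, stood at 166 and 187 (-0.17). None of the 4 passed the z test at either covariance, with adjusted p from 0.714 to 0.935 at 0 and from 0.417 to 0.858 at 0.5. No listed row lay within 500 kb of RP11-71N10.1.

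The lincRNA AC116609.2 (chromosome 2, 739816 to 751712) had the largest gap among the higher rows with a gene name. It is the locus that was strongest in trex8168, at a mean of 3908. Its mean was 331 in trex4039 and 138 in trex5008, with 163 in control and 150 in trex0108, a difference of 1.26 (adjusted p of the z test 1.76e-12 and 5.08e-27). In the authors' deposited table its log2 fold change against control was 0.89 in trex4039 (adjusted p = 5.06e-20) and -0.17 in trex5008 (adjusted p = 0.179). These values do not settle which of title and label is right for the trex5008 and trex8168 libraries.

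The largest positive difference of a protein-coding gene was at ALOXE3, an epidermal lipoxygenase (chromosome 17, 7999207 to 8022162). It had means of 158 in trex4039 and 75.5 in trex5008, with 95.6 in control (difference 1.05, adjusted p of the z test 0.00379 and 1.03e-07). HES7, a basic helix-loop-helix repressor whose row lies 709 bp from ALOXE3 and which was looked up after its values were seen, had 240 and 151 (0.67, z test adjusted p 0.114 and 0.00103), but it was highest in trex8168 at 303. CAP2, an actin-binding protein, was the only row with a mean of at least 1000 that was past 1.5-fold higher. It stood at 1813 in trex4039, 1123 in trex5008, 1081 in control, 1309 in trex0108 and 1334 in trex8168 (0.69, z test adjusted p 2.88e-07 and 1.65e-16).

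THBS1, the secreted matrix glycoprotein thrombospondin-1, had a mean of 373 in trex4039 and between 221 and 266 in the other 4 groups, with 222 in trex5008 (0.74, z test adjusted p 0.0145 and 4.31e-06). ACPP, the prostatic acid phosphatase, stood at 321 and 189 (0.76, z test adjusted p 0.00333 and 7.05e-08). The remaining higher genes named by size were weaker. SEMA5B, ZNF141, GRM4, PLEK, OLFML1 and CLVS2 had differences from 0.69 to 0.87, and of them SEMA5B passed the z test with the covariance at 0 (adjusted p 0.0267) while all 6 passed at 0.5. GRM4, a metabotropic glutamate receptor, was lower in trex5008 (70.7) than in the other 4 groups (106 to 139), and trex4039 (122) lay inside their range. The row named hsa-mir-125a is a lincRNA locus (chromosome 19, 52185937 to 52196681) with 40.7 and 22.4 and does not measure the mature miRNA.

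Among genes with a mean of at least 1000, the higher ones after CAP2 were SGMS2, GMFB, STK17B, CYR61, CDK17, NXT2 and RBBP9, with differences from 0.35 to 0.48. SGMS2, a sphingomyelin synthase, had means of 1678 in trex4039 and 1206 in trex5008, with 1037 in control (0.48, z test adjusted p 0.0102 and 1.67e-06). GMFB, a glia maturation factor, had 6884 and 5124 with 4259 in control (0.43, z test adjusted p 0.0211 and 9.47e-06). Both genes were above control in both groups and further above it in trex4039. STK17B and RBBP9 also passed the z test with the covariance at 0, and CDK17 and NXT2 passed it at 0.5 only.

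**Figure D3:**
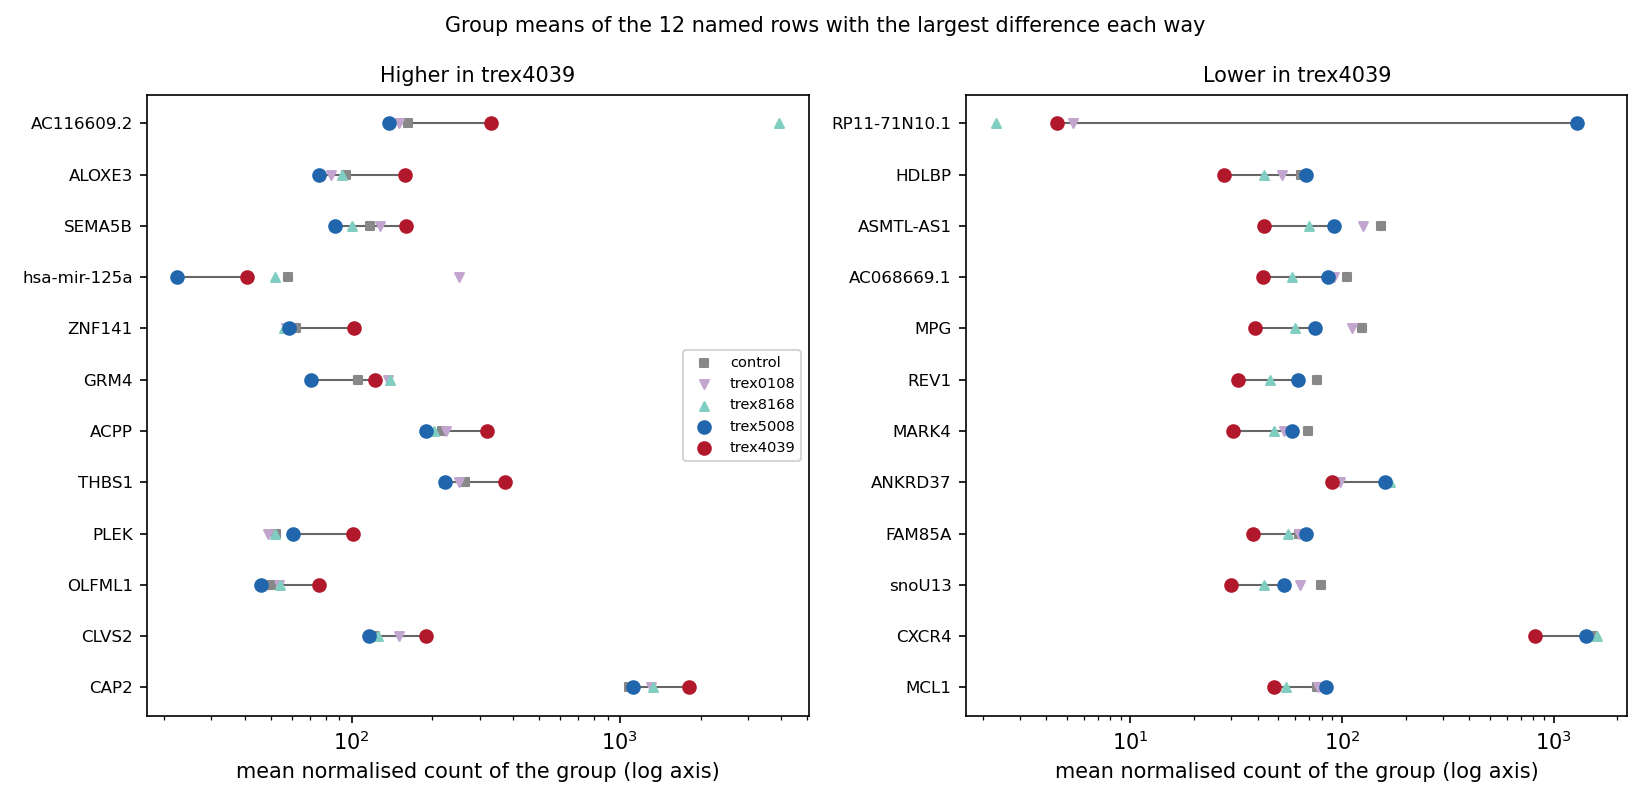
Mean normalised count in each of the 5 groups (horizontal log axis) for the 12 named rows with the largest difference each way, with a line joining trex4039 (red) and trex5008 (blue). Among the higher rows the highest point belongs to another group at AC116609.2 (3908 in trex8168), hsa-mir-125a (250 in trex0108) and GRM4 (139 in trex8168). Among the lower rows this holds for several, such as ASMTL-AS1 with 153 in control.

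Some of the lower rows in trex4039 were small loci that overlap a larger gene. The row with the second largest negative difference among named rows carries the symbol HDLBP but is a short locus (XLOC_037899, chromosome 2, 242226987 to 242237459) with means of 27.7 and 67.3 (-1.25, z test adjusted p 0.536 and 0.165). The main HDLBP locus, with a mean of 34292, differed by -0.07. Likewise the MPG row (XLOC_023671) had 38.7 and 74.7 (-0.93), while the main locus of MPG, a DNA glycosylase, had 992 and 1046 (-0.08). Of the 41 lower rows with a gene symbol, 4 were not the highest row of their symbol (9.76%), against 0.558% of all compared rows with a symbol and 0 of the 23 higher rows, a difference that was not tested. Higher rows could overlap other listed loci too, as THBS1, ZNF141, OLFML1 and hsa-mir-125a did. ASMTL-AS1, an antisense RNA, had 42.8 and 91.1 with 153 in control (-1.07, z test adjusted p 0.11 and 0.000813). Whether reads were counted by strand is not stated in the labels or notes used, so reads of antisense and overlapping loci may be shared with their partners.

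AC068669.1, REV1, MARK4, FAM85A, snoU13 and a locus carrying the symbol MCL1 (XLOC_004904) completed the weak lower rows, with trex4039 means from 29.9 to 47.9. None of them passed the z test with the covariance at 0. At 0.5, REV1, MARK4 and the MCL1 locus passed it, and AC068669.1, FAM85A and snoU13 did not. The 4 largest negative differences among unnamed loci were CATG00000038842.1 (22.8 and 57.8, -1.30), XLOC_069228 (110 and 257, -1.22), CATG00000033815.1 (27.8 and 65.1, -1.20) and XLOC_053538 (43.6 and 88.4). In all 4 the trex4039 mean was the lowest of the 5 groups and the trex8168 mean the next lowest. Over the 79 lower rows trex4039 was the lowest of the 5 groups in 75 and trex5008 the highest in 14, and over the 30 higher rows trex4039 was the highest in 20 and trex5008 the lowest in 17. These rows were chosen for the order of the same means, so the counts are a description. Over all 9795 rows trex4039 was the lowest in 3137 (32.0%) and the highest in 3577 (36.5%), and trex5008 the lowest in 1207 (12.3%) and the highest in 1106 (11.3%).

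Of the genes with a mean above 1000, CXCR4 had the largest negative difference. This chemokine receptor (chromosome 2, 136870792 to 136875719) had a mean of 813 in trex4039 and between 1418 and 1610 in the other 4 groups, with 1418 in trex5008 (-0.80, z test adjusted p 0.108 and 0.000772). The authors' deposited table gives it a log2 fold change against control of -0.65 in trex4039 (adjusted p = 3.81e-06) and -0.08 in trex5008 (adjusted p = 0.673). STC2, a secreted glycoprotein hormone, was likewise lowest in trex4039, with 1703 in trex4039 and 2488 to 2738 in the others (-0.55, z test adjusted p 0.141 and 0.00205). ANKRD18A had 1265 and 1823 (-0.53), and MTND1P23, a nuclear copy of a mitochondrial gene whose reads may come from mitochondrial RNA, had 815 and 1376 (-0.76).

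At an adjusted p under 0.05, 6 rows were called by the authors in opposite directions against control, and all 6 were higher than control in trex4039 and lower in trex5008. At their threshold of 0.1 there were 13 such rows, 11 of them higher than control in trex4039 and 2 lower. Of all 9795 compared rows the authors called 41.1% higher and 32.1% lower in trex4039 at 0.05, and 31.9% higher and 25.1% lower in trex5008. Opposite calls were thus rare, and their direction was not tested. The 6 are SEMA5B, FAM131B, GPER1, NKX6-1, TIPARP and the unannotated XLOC_037514. For SEMA5B, an axon guidance semaphorin, the authors' deposited table lists log2 fold changes of 0.35 (adjusted p = 0.0104) and -0.32 (adjusted p = 0.0261). NKX6-1, a homeodomain factor of ventral spinal cord and pancreas, had means of 573 in trex4039, 465 in control and 393 in trex5008 (difference 0.54, z test adjusted p 0.0135 and 3.24e-06). GPER1, a membrane oestrogen receptor, had 348, 278 and 231 in the same order (0.59, z test adjusted p 0.0238 and 1.38e-05). TIPARP, a mono-ADP-ribosyltransferase induced by the aryl hydrocarbon receptor, had 1012, 840 and 733 (0.46, z test adjusted p 0.0121 and 2.48e-06). Both comparisons use the same control libraries. The 6 rows were chosen for opposite calls on the same fold changes that the z test subtracts. Their small z test values follow from that choice and lend no separate support.

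YAP and TAZ are co-activators that enter the nucleus when Hippo signalling is low and act through TEAD factors, which bind the letters GGAATG. CTGF, CYR61 and ANKRD1 are their usual reporter genes, and THBS1, which is not in the list used below, is also often counted among them. The 250 bases ahead of the RefSeq start of 3 of these genes, each with a higher mean in trex4039, are shown (GRCh38.p14, each 5' to 3' on the gene's own strand, with GGAATG in capitals). CYR61 is not shown because no promoter sequence was matched to it. The regions are chr6:131951373-131951622 on the minus strand for CTGF (listed in RefSeq as CCN2), chr10:90921088-90921337 on the minus strand for ANKRD1 and chr15:39580829-39581078 on the plus strand for THBS1.
CTGF: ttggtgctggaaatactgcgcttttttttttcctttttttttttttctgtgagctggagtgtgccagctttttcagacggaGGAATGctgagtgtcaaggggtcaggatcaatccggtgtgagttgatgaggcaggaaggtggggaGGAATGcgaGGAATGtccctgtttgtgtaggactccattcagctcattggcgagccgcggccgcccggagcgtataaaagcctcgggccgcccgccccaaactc
ANKRD1: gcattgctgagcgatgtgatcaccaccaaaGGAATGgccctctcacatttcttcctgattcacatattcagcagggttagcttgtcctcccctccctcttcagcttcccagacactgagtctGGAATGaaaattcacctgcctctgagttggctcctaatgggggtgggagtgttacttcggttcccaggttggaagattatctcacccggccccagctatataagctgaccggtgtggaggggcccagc
THBS1: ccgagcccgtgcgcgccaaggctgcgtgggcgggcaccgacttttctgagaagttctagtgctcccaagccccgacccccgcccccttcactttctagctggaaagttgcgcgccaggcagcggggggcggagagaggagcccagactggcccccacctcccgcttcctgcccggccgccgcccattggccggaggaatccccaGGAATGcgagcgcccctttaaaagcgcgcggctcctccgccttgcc
The letters occur 3 times ahead of CTGF, starting 169, 104 and 95 bases before the start, 2 times ahead of ANKRD1 (220 and 128) and 1 time ahead of THBS1 (46). GGAATG or its reverse CATTCC was found in 3248 of 27305 RefSeq promoter windows of 250 bases (11.9%), and in 3 of the 4 members of the list below that matched the table. Those were CTGF, ANKRD1 and YAP1, and TEAD3 had none. A match is a description of these letters and shows no binding.

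Most listed genes of the YAP and TEAD pathway had a higher mean in trex4039. CTGF, a secreted matricellular protein, had means of 1021 in trex4039, 677 in trex5008, 730 in control, 751 in trex0108 and 625 in trex8168. The trex4039 mean was the highest of the 5, and the difference was 0.59 (z test adjusted p 0.00533 and 2.89e-07), which dropped to 0.58 and so below 1.5-fold when a pseudocount of 10 or centring on the median was used. CYR61, its close relative, had 1444 and 1122, with 1023 in control (0.36, z test adjusted p 0.0298 and 2.53e-05). ANKRD1, a nuclear ankyrin-repeat protein, had 373 and 302 (0.31, z test adjusted p 0.381 and 0.051). The co-activator YAP1 itself had 3628 and 3201 (0.18, z test adjusted p 0.318 and 0.0281), while the TEAD factors lay between -0.07 (TEAD4) and 0.11 (TEAD1).

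Of the 15 genes of that list, 7 were listed and compared: 6 were above 0 and 1 below, with a median of 0.18 beside 0.01 for all rows, of which 53.0% lay above 0. The z test called 2 of 6 testable members higher with the covariance at 0 (0.425% of all tested rows) and 3 at 0.5 (8.59%), and 0 lower. The authors' deposited calls against control at an adjusted p under 0.05 were 5 higher and 0 lower in trex4039, where 41.1% of all compared rows were called higher and 32.1% lower. In trex5008 they were 0 higher and 1 lower, where 31.9% of rows were called higher and 25.1% lower. The 2 sets of calls share their control libraries.

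Growth factor signalling through ERK was looked at after the values were seen, so its list was chosen on these data. Sprouty and ETV genes are feedback and effector genes of that pathway. SPRY4 had 328 in trex4039 and 220 in trex5008 (0.58, z test adjusted p 0.205 and 0.00636), ETV1 480 and 324 (0.57, z test adjusted p 0.0391 and 4.8e-05) and ETV4 464 and 319 (0.54, z test adjusted p 0.152 and 0.00272). SPRY2 had 1248 and 1013 (0.30, z test adjusted p 0.104 and 0.000711). EGR1, an immediate early transcription factor, went the other way with 556 in trex4039, 806 in trex5008 and 587 in control (-0.53, z test adjusted p 0.0462 and 7.81e-05). Of the 22 genes of the list 10 were compared, and 7 of them lay above 0, with a median of 0.21.

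BMP and TGF-beta ligands signal through receptor kinases to SMAD proteins, and the ID genes and SMAD7 are direct targets. Of 30 genes in this list 16 were compared, 14 of them above 0, with a median of 0.15. The inhibitor SMAD7 had 870 in trex4039 and 692 in trex5008, with 832 in control (0.33, z test adjusted p 0.138 and 0.00193). Among the ID repressors ID3 had 2447 and 2054 with 2696 in control (0.25), ID4 2252 and 1894 with 2242 (0.25) and ID1 726 and 614 with 776 (0.24). In each of them, and in SMAD7 and BMP4, trex5008 was the lowest of the 5 groups. The ligand BMP4 stood at 585 and 500 with 619 in control (0.23), whereas TGFB1 stood at 1852 and 2025 (-0.13). The z test called 0 of 15 testable members with the covariance at 0, and 5 higher and 0 lower at 0.5, where 8.59% of all tested rows were called higher. The authors' deposited calls against the shared control were 5 higher and 3 lower of the 16 in trex4039 (41.1% and 32.1% of all rows), and 2 higher and 9 lower in trex5008 (31.9% and 25.1%).

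For the WNT pathway 12 of 33 genes were compared and 10 lay above 0 (median 0.09), from LRP5, a co-receptor, at -0.19 to the secreted inhibitor DKK1 at 0.40 (139 and 105). No member passed the z test at either covariance, where 1.12% of all tested rows did at 0 and 16.1% at 0.5. NOTCH receptors, ligands and targets had 12 of 18 genes compared, of which 9 lay below 0 (median -0.03). Within it the ligand DLL4 had 236 in trex4039 and 165 in trex5008 (0.51, z test adjusted p 0.278 and 0.0175), and the target HES5 had 107 and 133 (-0.31, z test adjusted p 0.504 and 0.132). Removing the trend on GC content turned the sign of the NOTCH median to 0.07.

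Cytosolic ribosomal protein genes lay on the other side. Of 76 such genes 22 were compared, and all 22 had a lower mean in trex4039, from -0.03 (RPS25) to -0.50 (RPS28), with a median of -0.20, while 47.0% of all compared rows lay below 0. RPS28 had means of 4534 in trex4039, 6435 in trex5008, 7079 in control, 7227 in trex0108 and 8221 in trex8168, so that trex4039 was the lowest of the 5 groups (z test adjusted p 0.308 and 0.0245). RPL13 had 24726 and 30577 (-0.31, z test adjusted p 0.166 and 0.00354), RPLP1 18630 and 22927 (-0.30) and RPL12 13394 and 16370 (-0.29). None of the 18 testable members passed the z test with the covariance at 0, and 5 were called lower and 0 higher at 0.5, where 7.47% of all tested rows were called lower. Against control, the authors' deposited calls were 0 higher and 6 lower of the 22 in trex4039 (41.1% and 32.1% of all rows), and 6 higher and 0 lower in trex5008 (31.9% and 25.1%). The 6 lower calls in trex4039 and the 6 higher calls in trex5008 are thus each a smaller share of the list than of all rows. Reads of ribosomal protein genes can be shared with their many processed pseudogenes.

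Messenger RNAs of ribosomal proteins typically begin with a C followed by a run of pyrimidines, the 5' terminal oligopyrimidine tract through which mTOR controls their translation. The first bases of 5 members, the highest and lowest of the list among them, are shown to compare their starts (RefSeq, GRCh38.p14, 30 bases on the gene's strand with 10 ahead of the start, and the first 5 transcribed bases in capitals). The windows are chr19:8321486-8321515 (plus) for RPS28, chr16:89560647-89560676 (plus) for RPL13, chr15:69452808-69452837 (plus) for RPLP1, chr9:127451387-127451416 (minus) for RPL12 and chr11:119018324-119018353 (minus) for RPS25.
RPS28: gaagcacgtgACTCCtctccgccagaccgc
RPL13: tgctatcatcCCAGAgtgcattgcggggcc
RPLP1: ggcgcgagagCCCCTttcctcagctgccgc
RPL12: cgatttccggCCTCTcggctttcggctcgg
RPS25: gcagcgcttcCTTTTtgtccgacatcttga
A C followed by 4 pyrimidines at the annotated start was found for 10 of the 19 members in the table (52.6%) and for 1104 of 27305 promoters (4.04%). The annotated start of RPS28, with the largest gap, is an A followed by a C and pyrimidines, so RPS28 was not counted. RPS25, with the smallest gap, was counted. Members of the list with and without such a start were not compared with each other. Among other protein-coding rows, the median was 0.01 for the 240 with such a start and 0.03 for the 4556 without.

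Translation factors and the nuclear-encoded respiratory chain were also mostly below 0. In the translation list 18 of 41 genes were compared and 16 were lower in trex4039 (median -0.08), with the largest gap at EIF3C, a scaffold subunit of initiation factor 3 (14276 and 16513, -0.21, z test adjusted p 0.119 and 0.00127). For the respiratory chain 26 of 71 were compared and 24 were lower (median -0.11), led by the complex I subunit NDUFV3 (1740 and 2122, -0.29, z test adjusted p 0.139 and 0.00196). Neither list held a member called with the covariance at 0. At 0.5, 1 of 14 testable translation factors and 4 of 22 respiratory chain genes were called lower, where 7.47% of all tested rows were.

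**Figure D4:**
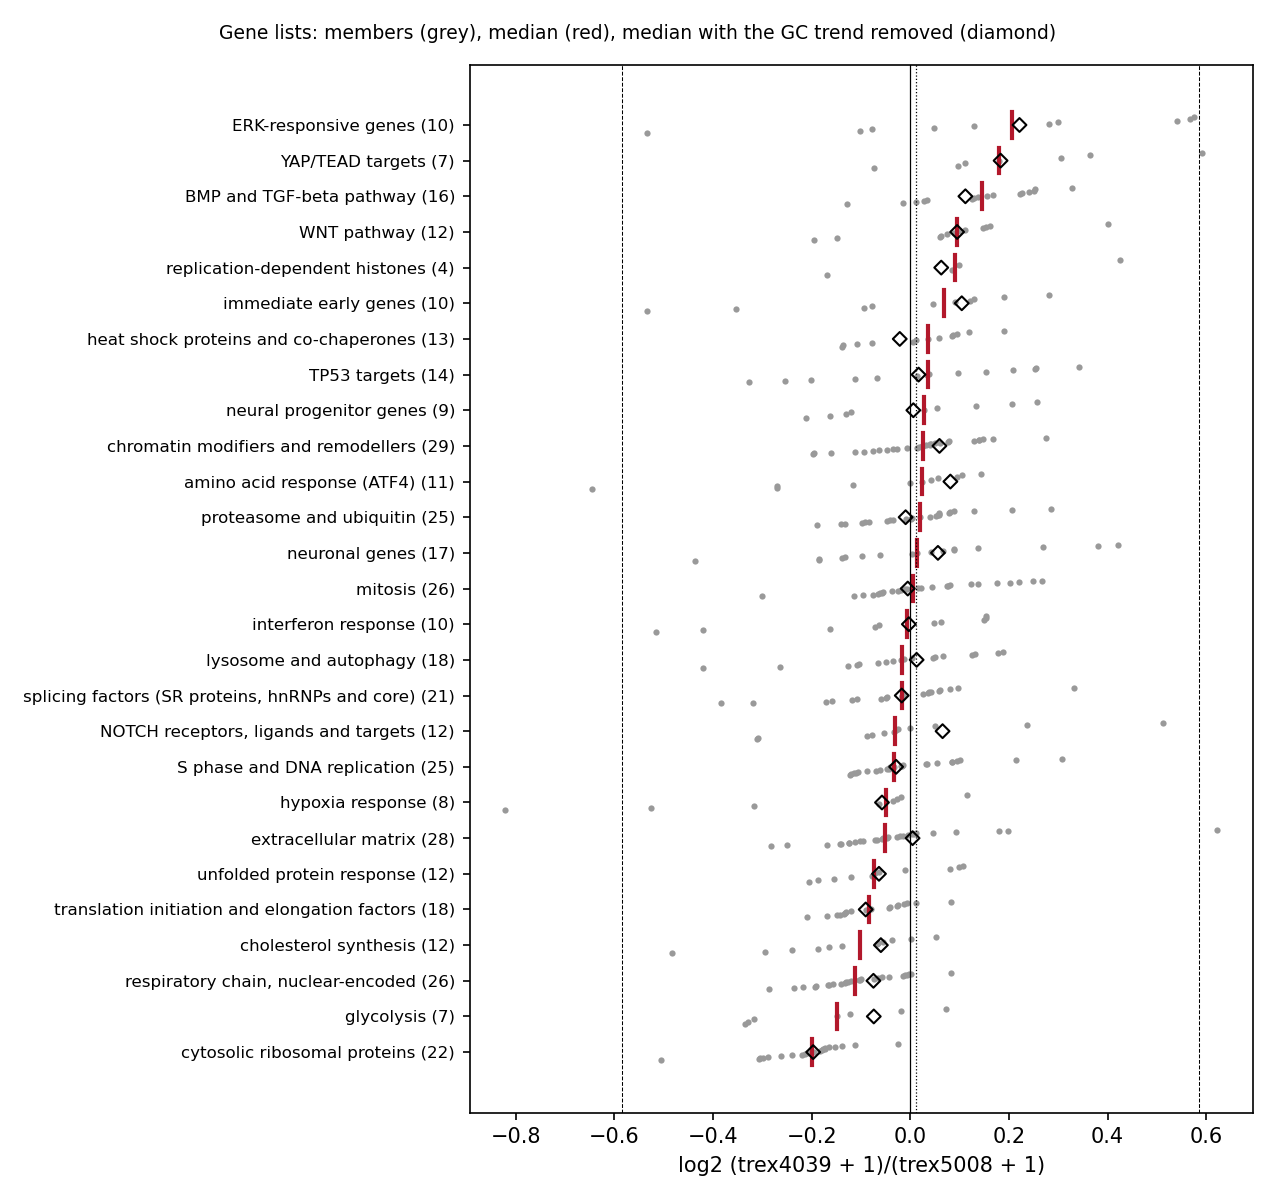
Log2 difference of every compared member (grey points) in 27 gene lists, with the list median (red bar), the median after removing the trend on GC content (diamond), a dotted line at the median of all rows and dashed lines at 1.5-fold. The medians run from -0.20 for ribosomal proteins to 0.21 for ERK-responsive genes, a list chosen after these differences were seen. The highest median of the other lists is 0.18 (YAP and TEAD), and 4 members lie past 1.5-fold.

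Of 18 hypoxia genes 8 were compared, with 7 below 0 and a median of -0.05. DDIT4, an mTOR inhibitor induced by stress and low oxygen that stands in the amino acid response list, had 570 in trex4039, 893 in trex5008 and 1786 in control (-0.65, z test adjusted p 0.434 and 0.0784), and -0.57 once the trend on GC content was removed. Both groups were below control, and trex4039 was the lowest of the 5. ANKRD37, a hypoxia-induced ankyrin protein, had 90.0 in trex4039 and 160 in trex5008, with 93.1 in control and 169 in trex8168, so that the gap here lay in a higher trex5008 mean (-0.82, z test adjusted p 0.0998 and 0.000638). NDRG1, a further hypoxia gene, had 4371 and 6295 with 6510 in control (-0.53, z test adjusted p 0.376 and 0.0485).

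In cholesterol synthesis 12 of 27 genes were compared and 10 were below 0 (median -0.10). INSIG1, which holds the sterol sensor in the endoplasmic reticulum, stood at 2456 and 3431 (-0.48, z test adjusted p 0.495 and 0.125), and SQLE, squalene epoxidase, at 5244 and 6430 (-0.29, z test adjusted p 0.135 and 0.00174). Glycolysis had 7 of 23 genes compared, 6 of them below 0 (median -0.15), with the phosphofructokinase PFKL at 2640 and 3332 (-0.34, z test adjusted p 0.114 and 0.00104). The glycolysis median was -0.07 with the GC trend removed. The unfolded protein response had 9 of 12 below 0 (median -0.07) and the amino acid response 5 of 11 (median 0.02). Heat shock proteins and co-chaperones had 9 of 13 above 0 (median 0.04), and this sign turned to -0.02 with the GC trend removed. None of these 6 lists, hypoxia included, held a member called with the covariance at 0. At 0.5, where 7.47% of all tested rows were called lower, 3 of 7 testable glycolysis genes, 2 of 10 cholesterol genes and 2 of 8 hypoxia genes were called lower. So were 1 of 12 unfolded protein response genes and 1 of 8 amino acid response genes, but 0 of 12 heat shock genes. No member of the 6 lists was called higher at 0.5, where 8.59% of all tested rows were.

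HSF1, whose activation domain is part of the transfected activator so that its reads cannot be told apart from plasmid reads, had means of 26179 in trex4039, 22960 in trex5008 and 32768 in control (0.19, z test adjusted p 0.667 and 0.343). RELA, which encodes p65, had 3026 and 2890 (0.07). The part of activator dose in the differences above was not tested.

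Of 47 matrix genes 28 were compared and 20 were below 0 (median -0.05), and the median was 0.00 with the GC trend removed. COL12A1, a fibril-associated collagen, was the exception in size, with 291 in trex4039, 189 in trex5008 and 205 to 248 in the other 3 groups (0.62, z test adjusted p 0.101 and 0.000653). COL4A2, a basement membrane collagen, had 3097 and 3766 (-0.28, z test adjusted p 0.0699 and 0.00023). The other 13 lists, among them cell cycle, splicing, chromatin and neural genes, had medians from -0.03 to 0.09. Within them SUZ12, a subunit of Polycomb repressive complex 2, had 7186 and 5940 (0.27, z test adjusted p 0.0238 and 1.38e-05), and NEFM, the medium neurofilament chain that HEK293 cells express, had 3590 and 4863 (-0.44, z test adjusted p 0.0137 and 3.68e-06).

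The difference moved with the GC content of the transcript. The 5947 protein-coding rows with a GC content in the reference annotation were put into 5 bins of like size, and from the lowest to the highest the median difference was 0.12, 0.07, 0.04, -0.04 and -0.08. The rank correlation of GC content with the difference was -0.447 and that of transcript length 0.237, across genes of the same group means and so as a description only. Against control, in the authors' deposited table, the median log2 fold change of the same bins went from 0.32 to -0.31 in trex4039 and from 0.21 to -0.25 in trex5008. These columns share the control libraries, and each goes down with GC content. With the slope removed, the ribosomal protein median was -0.20, with 21 of 22 members below 0, and the YAP and TEAD median 0.18, with 7 of 7 above.

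**Figure D5:**
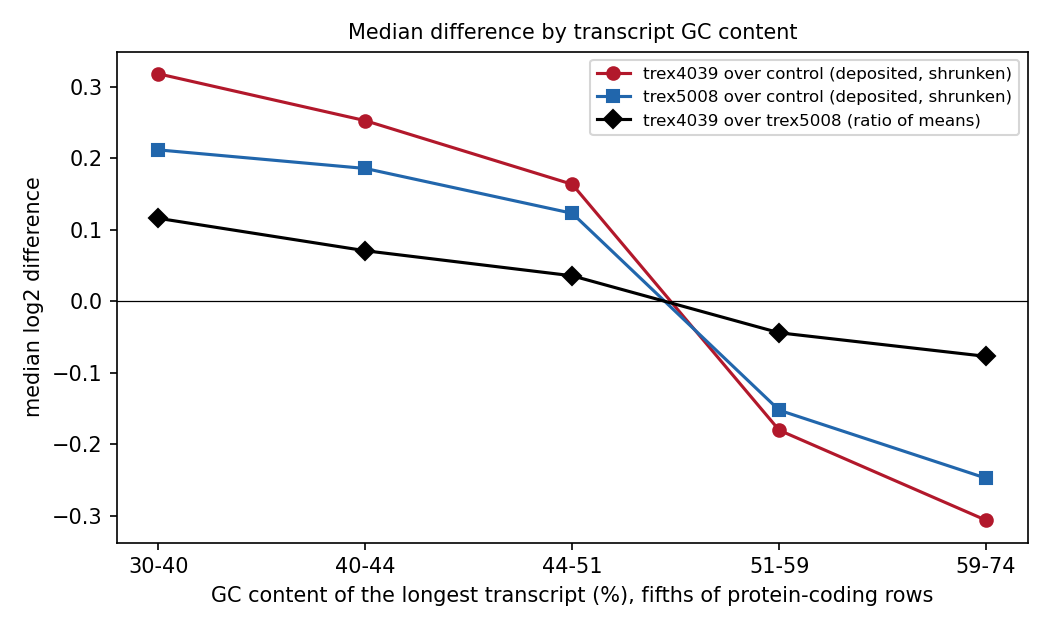
Median log2 difference (vertical axis) in 5 bins of protein-coding rows by GC content of the longest transcript (horizontal axis, percent), for trex4039 over trex5008 (black) and for each group over control as deposited (red and blue). All 3 lines go from positive in the lowest bin (0.12, 0.32 and 0.21) to negative in the highest (-0.08, -0.31 and -0.25).

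The kind of locus moved with the difference as well. Protein-coding rows had a median of 0.02, with 23 rows past 1.5-fold higher and 26 lower. Antisense loci had a median of -0.08, with 0 of 257 past 1.5-fold higher and 5 lower, and 59.5% of them lay below 0. LincRNAs had a median of -0.08 with 2 higher and 4 lower of 145. The 2139 rows without an annotated type had a median of -0.02, with 5 higher and 35 lower.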

How the data were processed

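Polyadenylated RNA of HEK293FT cells was sequenced in 15 libraries, 3 for each of 5 groups. The deposited table holds group means only. The submitters' processing notes name DESeq2 1.14.1 and DESeq, the aligners STAR 2.5.1b and Bowtie2 2.2.1, Cufflinks and bedtools, and hg19 (GRCh37), with no role for each. The authors deposited, as signal, the mean normalised counts of each group and of all libraries; the group means averaged to the mean of the 15 libraries. The deposited log2 fold changes against control are shrunken by the authors. The deposited p-value columns are the authors' adjusted p, and the authors' calls were used as deposited. Values per library were not analysed here, so the count test planned for them was not run.

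Rows with a mean of at least 50 were compared as a log2 ratio of group means with a pseudocount of 1, using Python 3.11.15, pandas 2.3.3 and scipy 1.17.1. Calls were made past 1.5-fold and 2-fold, with no test. The z test used errors recovered from adjusted p and rank, with Benjamini-Hochberg adjustment over all rows tested. The z test was also run on simulated data, but no outcome of that run is given. Its rate of false calls in these data is therefore not known at either covariance. In the wider set a missing error was set equal to the known one; where both were known their ratio had a median of 1.00 and ran from 0.946 to 1.10 in 95% of 5536 rows. GC content came from GENCODE 29 and promoter sequences from RefSeq GRCh38.p14. The GC trend was a lowess curve with a span of 0.3, and was removed for protein-coding rows only, since 63.8% of all rows had a GC content.

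Genes named are the 12 largest differences each way among rows with a symbol, 4 among bare identifiers and 8 among rows with a mean of at least 1000. Rows with opposite calls, list members past 1.5-fold or at the extremes of their list, and rows within 500 kb of the strongest risen row not annotated as protein-coding were added. Other genes were chosen once their values were known. The members and the 28 gene lists were chosen with earlier results of these data known, and 1 list (ERK-responsive genes) after the direct differences were seen.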

Additional observations from a re-analysis of the deposited data

How the results depend on the processing

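With the pseudocount at 10, 4 rows were at least 2-fold lower in trex4039, against 8 at a pseudocount of 1. With no minimum mean, 154 and 597 rows passed 1.5-fold higher and lower, and 33 and 221 passed 2-fold; with a minimum of 200 these were 10, 24, 1 and 2. The difference of the authors' deposited log2 fold changes, which are shrunken, put 8 rows past 1.5-fold higher, 9 lower and 1 past 2-fold lower, and 27 of the 38 named rows past 1.5-fold dropped below it by that measure. Protein-coding rows with a GC content gave 25 rows past 1.5-fold lower and 1 past 2-fold each way, and with the GC trend removed 20, 1 and 1; these are fewer rows compared. Rows whose symbol no other listed row carries gave 35 past 1.5-fold lower and 3 past 2-fold lower. The z test called 68 higher and 103 lower rows with the number of tests set to 69629, the highest locus number, 374 and 340 with a covariance of 0.5, 38 higher over the wider set, and 769 and 669 there with a covariance of 0.5. Apart from these settings' own construction, the cause was not tested. None of the 38 named rows past 1.5-fold turned its sign in a setting in which it was compared; this was not counted for other rows. List medians changed by more than the spread used here in 5 of 27 lists with the GC trend removed, 1 with a minimum of 200, 1 with the deposited difference and 1 with unique symbols. The GC removal planned for all rows was not run, since too few rows had a value. No paired analysis was possible because the table holds group means and the library titles carry no replicate number shared between groups. Leaving out single libraries was not possible for the same reason, so whether 1 library sets a group mean was not tested. Unknown depth limits the weak rows most: 9.40% of rows with a mean from 50 to 100 passed 1.5-fold, against 0.0977% of those with at least 1000.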

Other observations

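The rows with the smallest adjusted p in the z test over the wider set include genes not described above, named after their values were seen. ENDOD1, an endonuclease-domain protein, had means of 1220 in trex4039 and 825 in trex5008, with 761 in control (0.56, z test adjusted p 3.69e-05 with a covariance of 0 and 4.71e-12 with 0.5). SLC30A1, the zinc exporter of the plasma membrane, had 1156 and 868 (0.41, z test adjusted p 0.00574 and 3.59e-07), and the ubiquitin ligase RNF182 had 841 and 618 (0.44, z test adjusted p 0.00639 and 5.37e-07). In all 3 genes the trex4039 mean was the highest of the 5 groups.

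On the lower side the smallest adjusted p belonged to genes expressed well above the minimum mean. ACAP3, a GTPase-activating protein, had 1102 in trex4039, 1496 in trex5008 and 1866 in control (-0.44). The DNA glycosylase NEIL1 had 867, 1185 and 1393 in the same order (-0.45), and CBS, the cystathionine beta-synthase, 5018, 6407 and 7749 (-0.35). LENG8, which was looked up by name and not for its adjusted p, had 4363, 5765 and 10500 (-0.40, z test adjusted p 0.0145 with a covariance of 0 and 4.31e-06 with 0.5). In these 4 genes both groups were below control and trex4039 was the lower of both. DDX11 (4322 and 5219) and its near-identical pseudogene DDX12P (1884 and 2393) were also among the rows with the smallest adjusted p, and their reads may be shared. ISG15, an interferon-induced ubiquitin-like protein with a larger adjusted p than these, had 405 and 543 (-0.42, z test adjusted p 0.0496 with a covariance of 0 and 9.35e-05 with 0.5). Of the 10 compared genes of its list, the interferon response, 5 lay above 0 and 5 below, with a median of -0.01.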
